A study of Homo sapiens with 4 samples.

Results

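The LINC genes are the human loci that carry a systematic name for a long intergenic noncoding RNA, LINC followed by digits. They were taken from the deposited transcript counts by symbol, the counts of each gene were summed over its transcripts, and a gene was kept when its mean over the 4 libraries was at least 1 CPM (counts scaled to the same library total). The members were thus chosen by their mean expression level over all 4 libraries. A gene high in 1 group can pass through that group, and 7 members reached 1 CPM in OE alone and 2 in the vector control alone, so their membership depends on a difference between the groups. It kept 100 of the 562 LINC genes in the table, which lists 57820 genes in all. Below the limit, 316 LINC genes had 0 counts in every library and 146 were detected under 1 CPM.

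Bulk RNA was sequenced from SK-N-SH, an established human neuroblastoma line, after the cells were transduced with a lentivirus that carries *RP5-998N21.4* cDNA behind the EF1a promoter (*RP5-998N21.4* OE) or with the same vector without an insert (vector control), with 2 libraries per group. The control libraries are titled WT, but their treatment label gives the empty virus, which was followed here, so that all 4 libraries come from transduced cells. No label says that libraries of a group came from separate cultures, and p-values then measure only the spread between these libraries. The comparison asks which transcripts differed once this long noncoding RNA (lncRNA) was overexpressed.

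An lncRNA is a transcript without a long open reading frame that is usually made by RNA polymerase II, capped, spliced and polyadenylated. LncRNAs can act on the chromatin near their own gene, bind proteins or microRNAs in the nucleus or cytoplasm, or merely mark transcription of the locus, and most are expressed at lower levels and in fewer tissues than mRNAs. A LINC symbol is provisional. Some of these loci were renamed once a function, a microRNA or a small protein was assigned to them.

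The control libraries held 23785164 and 24098041 counts and the OE libraries 24601728 and 28307591. *RP5-998N21.4* itself had 32 and 33 counts in the controls against 2407 and 2808 in OE, as the labels say. The sympathetic neuroblastoma markers *HAND2*, *GATA3* and *DBH* were detected in every library, and of the markers of other tissues *ALB* and *HBB* were at 0, *PTPRC* at 4 counts or fewer, *GFAP* at 6 to 18 and *EPCAM* at 8 to 30. These adrenergic markers were higher in both OE libraries than in both controls: *GATA3* was at 1198 and 926 counts against 2227 and 2563 in OE (log2 fold change 0.96, adjusted p = 0.101, Benjamini-Hochberg adjusted, edgeR's quasi-likelihood test). The mesenchymal marker *VIM* had 8111 and 8217 counts in the controls and 31466 and 10869 in OE, a 3.34-fold difference between the OE libraries (log2 fold change 1.22, adjusted p = 0.367). The mesenchymal marker *PRRX1* had 8212 and 10408 counts in the controls and 7224 and 6477 in OE (log2 fold change -0.64, adjusted p = 0.194), and *FN1* was at -0.04. In bulk RNA a change in the share of a cell state and a change of RNA per cell cannot be told apart, and the part of the cell state in the results below was not tested.

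The sequences shown here belong to the members with the largest share of LINC reads, with the largest difference between the groups among those with an unadjusted p under 0.05, or with a microRNA in the gene body, and 1 promoter is added for its place beside *LINC00883*. *LINC00657*, now named *NORAD*, is a cytoplasmic lncRNA known for binding PUMILIO proteins, a family of repressors of mRNA stability and translation that read a short motif in RNA. Its transcript ENST00000565493.1 has 1 exon of 5401 nt at chr20:34633540-34638940 (GRCh37, minus strand). On the transcript strand it holds 15 copies of that motif, TGTANATA in DNA letters, or 2.78 per kb. The next member by this count was *LINC01023* with 4 copies in 2616 nt. Of the 12051 annotated transcripts of at least 5401 nt, 3 (0.0249%) held as many in their first 5401 bases, where the median was 0. These 3 include the *LINC00657* transcript itself, and transcripts of the same gene were counted separately. Longer transcripts were cut to their first 5401 bases while *LINC00657* is whole, so the shares are not of like regions. A match to these letters is a description and not a site that was shown to be bound. Below, 6 of the 15 are shown with 11 bases on each side, 5′ to 3′, with the match in capitals. The first 5 were picked for sharing the core TGTATATA and the left flank ctg, which most other copies lack, and the last to show TGTAAATA.
site 2: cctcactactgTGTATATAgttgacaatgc
site 4: ttacttatctgTGTATATAgtgtacataaa
site 11: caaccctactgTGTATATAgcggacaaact
site 12: ttactgtgctgTGTATATAgtgtatataag
site 14: caatgctactgTGTATATAatggaaaactt
site 15: attagcctattTGTAAATAcctttgttata

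Promoter sequences, from 250 bases before to 50 bases after the start site (RefSeq, GRCh38.p14), were found for 73 of the 100 members. Since the study is about interferon genes, they were searched on both strands for the core of the interferon-stimulated response element, GAAA repeated after any 2 bases. It was present in 3 of 73 promoters (4.11%), against 996 of all 27305 promoters (3.65%), and nothing follows from its presence about a factor. The 3 holders were *LINC01085*, *LINC00882* and *LINC00310*. *LINC01085* had the lowest level in OE relative to the vector control among the members with an unadjusted p under 0.05. *LINC00882* starts 60 nt from *LINC00883* on the other strand in the GRCh37 annotation. The windows are chr4:14111718-14112017 on the plus strand and chr3:107240589-107240888 on the minus strand, with the match, read on the strand printed, in capitals.
LINC01085 promoter: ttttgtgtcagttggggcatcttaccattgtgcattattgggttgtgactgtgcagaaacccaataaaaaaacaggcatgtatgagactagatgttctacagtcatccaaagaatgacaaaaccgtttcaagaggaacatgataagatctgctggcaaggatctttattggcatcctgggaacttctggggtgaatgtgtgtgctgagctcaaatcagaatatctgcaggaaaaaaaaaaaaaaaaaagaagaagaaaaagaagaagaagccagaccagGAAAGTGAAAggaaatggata
LINC00882 promoter: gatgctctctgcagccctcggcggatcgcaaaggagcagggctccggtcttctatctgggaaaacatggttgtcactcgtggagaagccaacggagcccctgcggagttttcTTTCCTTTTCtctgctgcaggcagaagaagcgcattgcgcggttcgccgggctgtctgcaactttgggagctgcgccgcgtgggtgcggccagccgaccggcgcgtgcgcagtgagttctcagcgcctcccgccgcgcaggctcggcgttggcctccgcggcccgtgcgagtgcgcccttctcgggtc

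Beside *LINC00599*, a microRNA host by its annotated name *MIR124-1HG*, annotated microRNAs were matched to the body of 3 members on the same strand. *LINC00472* holds *MIR30A* and *MIR30C2*, whose 5p products share the seed GUAAACA, while *LINC00969* holds *MIR570* and *LINC01057* holds *MIR378G*. The mature sequences (RefSeq) are printed with the seed, bases 2 to 8, in capitals, because they are what such a host could yield. The mature microRNAs themselves were not measured in these libraries.
hsa-miR-30a-5p: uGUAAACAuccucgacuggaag
hsa-miR-30c-5p: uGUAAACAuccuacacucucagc
hsa-miR-570-3p: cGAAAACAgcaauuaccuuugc
hsa-miR-378g: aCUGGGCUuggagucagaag

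By gene identifier, 97 of the 100 members were found in the lifted GENCODE annotation for GRCh37. There, 77 are lncRNA genes, 11 are annotated as protein-coding and 9 as pseudogenes. The annotation still gives a LINC name to 66 and another name to 31. The 11 protein-coding loci are mostly small-protein genes, such as *LINC00998* (*SMIM30*), *LINC00493* (*SMIM26*) and *LINC00116* (*MTLN*). The members lie on 22 chromosomes, their leading transcripts have a median length of 2100.5 nt, and 15 have a leading transcript with a single exon. Exons of 36 members overlap those of another gene, on the opposite strand in 21, and the use of strand in counting is not given in the sources used here. A transcript of another gene is nearly identical (at least 95% over 200 nt) for 18 of the 98 members that could be checked, and the counts of these members are uncertain for that reason.

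A single locus gave the largest part of the LINC reads, though less than the other 99 members together. The 100 members together took 0.216% and 0.206% of the counts in the controls and 0.206% and 0.208% in OE. *LINC00657* alone gave 49.1% and 47.6% of the members' counts in the controls and 42.7% and 42.6% in OE. The other 99 members summed to 1125 and 1109 CPM in the vector control and to 1156 and 1166 CPM in OE when scaled to library sizes normalized by TMM. On library totals without TMM the sums were 1102 and 1082 against 1179 and 1192 CPM. Both OE libraries were thus below both control libraries in the share of *LINC00657* and above them in the sum of the others.

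The levels of the members ran from a mean of 952 CPM for *LINC00657* down to 1.03 CPM for *LINC01018*. *LINC00094* (*BRD3OS*), which runs antisense to the bromodomain gene *BRD3*, followed at 105 CPM, and *LINC00998*, which encodes a small membrane protein, at 82.2 CPM. *LINC00909* (52.2 CPM), *LINC00667*, *LINC00221* (43.6), *LINC00839* (40.2) and *LINC00205* (34.7 CPM) completed the 8 highest means. The median of the members was 4.69 CPM, 33 members were at 10 CPM or more and 2 at 100 CPM or more. A mean of 1 CPM was reached in both groups by 91 members.

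**Figure D1:**
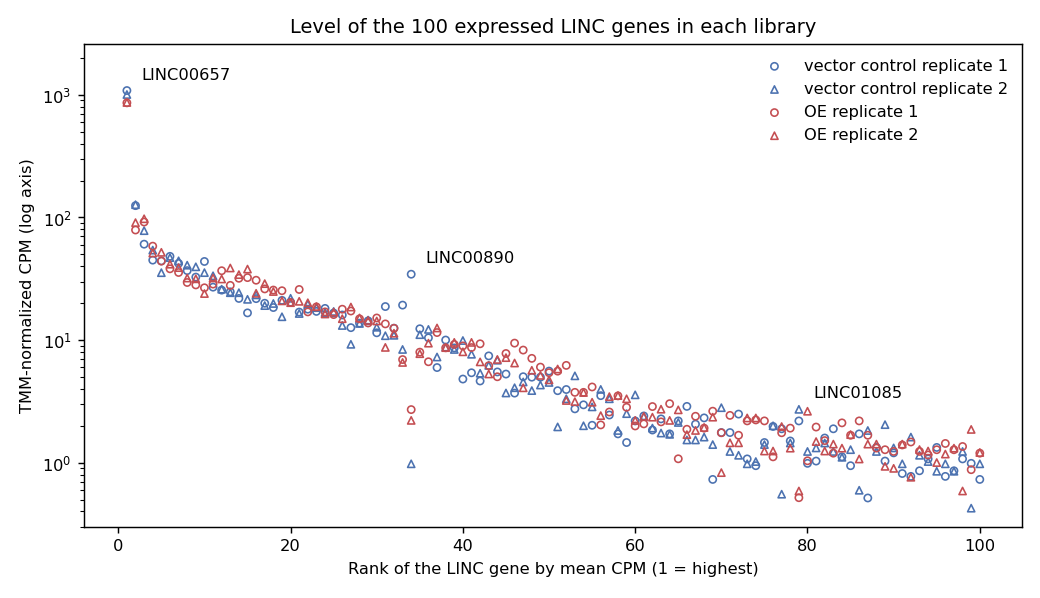
TMM-normalized CPM (log axis) of the 100 expressed LINC genes in each of the 4 libraries, ordered by mean CPM, with vector control in blue, OE in red, circles for replicate 1 and triangles for replicate 2. *LINC00657* stands alone with a mean of 952 CPM, and *LINC00890* has 34.4 CPM in vector control replicate 1 and at most 2.71 CPM in the other libraries.

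Between genes, levels were compared per length of the transcripts that held the counts, which was possible for the 89 members with at least 90% of their counts on transcripts of known length. *LINC00657* was again the highest with 176 CPM per kb. The short *LINC00998* followed at 81.7 and *LINC00493*, the locus of a mitochondrial microprotein, at 41.7 CPM per kb. *LINC00537*, annotated as the *DUX4*-like pseudogene *DUX4L50*, reached 33.0 CPM per kb. *LINC00205* was at 23.8 and *LINC00094* at 22.3 CPM per kb, so that *LINC00094* moved from the second place by CPM to the sixth per length.

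Differences between OE and the vector control were tested with edgeR's quasi-likelihood test, fitted on the 20528 genes that passed the filter on low counts, with Benjamini-Hochberg adjustment over all of them. All 100 members passed this filter. From here on, CPM are scaled to library sizes normalized by TMM, while the means over the 4 libraries and the levels per kb above use library totals. At an adjusted p under 0.05 together with an absolute log2 fold change above 0.5, 0 of the 100 members were called, where 0.594% of all tested genes were called, and the smallest adjusted p of a member was 0.0784. At the stricter adjusted p under 0.01, with the same limit on the log2 fold change, the count was 0 among the members and 0.0% among all genes. DESeq2 on the same genes called 10 members at the stricter limit, 6 higher and 4 lower. It called 8.77% of all genes there, 4.35% with a higher and 4.42% with a lower level in OE. At an adjusted p under 0.05 with an absolute log2 fold change above 0.5, DESeq2 called 15 members. It called 11.5% of all genes there (5.87% higher, 5.65% lower).

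At an unadjusted p under 0.05, 23 members differed, where 20.8% of all tested genes did. Among tested genes with a mean of 1 CPM or more the share was 22.9%. Of the 23 members, 15 were higher in OE (10.1% of all genes) and 8 were lower (10.7%). The median log2 fold change of the 100 members was 0.20, with a lower quartile of -0.19 and an upper quartile of 0.52, and 63 members were above 0 and 37 below. For the 7 members that reached 1 CPM in OE alone and the 2 in the vector control alone, the direction was partly fixed by the choice of members. Over all tested genes the median was 0.01. The 1723 other lncRNA genes at 1 CPM or more had a median of 0.13, with 190 higher and 74 lower at an unadjusted p under 0.05, and the 12813 protein-coding genes a median of -0.02.

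Both OE libraries lay on the same side of both control libraries in 57 members, 40 of them higher and 17 lower. The share was 55.4% over all tested genes, with 27.8% higher and 27.6% lower. Among tested genes with a mean of 1 CPM or more it was 57.6%. The 7 members that reached 1 CPM in OE alone and the 2 in the vector control alone were kept partly through such a difference. The counts by direction are tilted by that choice. With 2 libraries against 2, an exact two-sided permutation test cannot give a p below 0.333, so none is given for a single gene.

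With each library left out in turn, 13 to 19 members were at an unadjusted p under 0.05. The count was 14 without OE replicate 1 and 13 without OE replicate 2, where 14.4% and 16.2% of all genes were called, so the share over all genes was lower as well. It was 16 without vector control replicate 1 and 19 without replicate 2, beside 16.3% and 15.8% of all genes. The median fell to 0.13 without vector control replicate 2 and to 0.11 without OE replicate 1. Of the 23 members, 7 remained at an unadjusted p under 0.05 in all 4 of these fits: *LINC01085*, *LINC00094* and *LINC00657* below the vector control and *LINC00632*, *LINC01023*, *LINC00174* and *LINC00565* above it. Of these, *LINC01085* reached 1 CPM in the vector control alone and *LINC00632* in OE alone. Each fit without a library has 1 group of a single library, so its p rests on the spread within the other group. Which members kept the call is thus a description only.

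**Figure D2:**
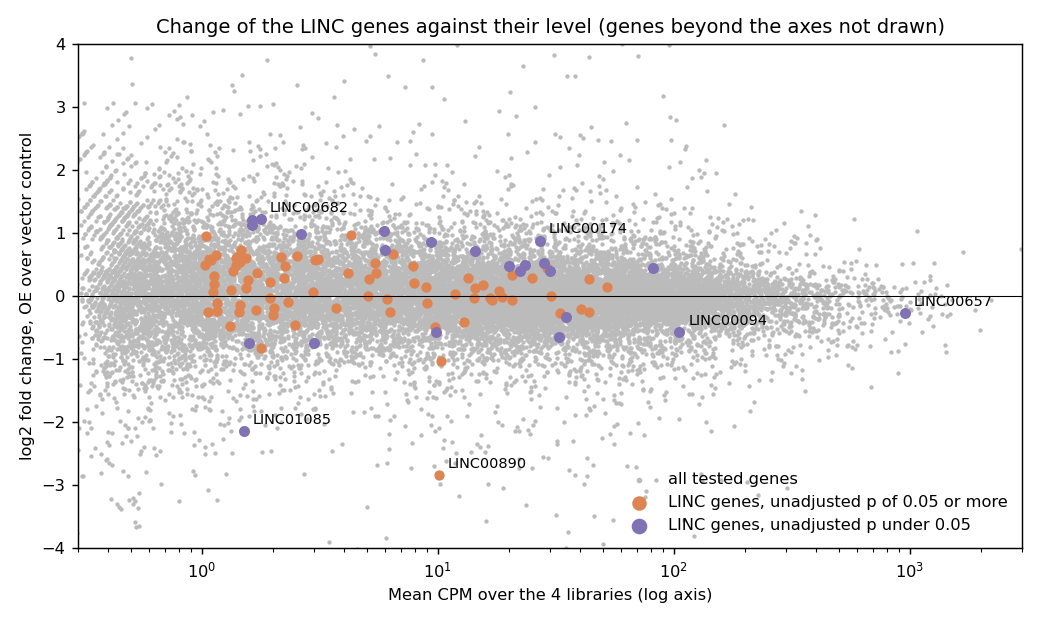
Log2 fold change of OE over vector control against the mean CPM of the 4 libraries (log axis) for all tested genes (grey), the 77 LINC genes with an unadjusted p of 0.05 or more (orange) and the 23 with an unadjusted p under 0.05 (violet). The median of the LINC genes is 0.20, and *LINC01085* at -2.14 is the lowest violet point.

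Among the members lower in OE, *LINC01085* differed most of those with an unadjusted p under 0.05. It is a gene that passed the limit of 1 CPM only through its level in the vector control. The gene lies at chr4:14113592-14141676 (GRCh37, plus strand) and is annotated as a transcribed processed pseudogene that overlaps *KLF17P2* on the same strand. It had 51 and 64 counts in the controls and 13 and 17 in OE. In CPM it was at 2.46 ± 0.377 (SD, n = 2) and 0.553 ± 0.0492 (SD, n = 2). OE was 4.41-fold lower, with no overlap between the groups (log2 fold change -2.14, standard error 0.281, adjusted p = 0.0784, Benjamini-Hochberg adjusted, edgeR's quasi-likelihood test). Leaving out 1 library at a time gave values from -2.29 to -1.98, and DESeq2 gave an adjusted p of 7.33e-06.

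*LINC00657*, which limits the activity of PUMILIO proteins and is needed for stable chromosome numbers, had 25251 and 23652 counts in the controls and 21609 and 25061 in OE. It was at 1084 and 1007 CPM in the control libraries and at 861 and 866 CPM in the OE libraries. The groups did not overlap, and the replicates of OE lay closer to each other than those of the control. OE was 1.21-fold lower, or -0.28 on the log2 scale (standard error 0.0542, adjusted p = 0.119). Transcripts of 4 other genes are nearly identical to part of it. The longest match is *OVCH1-AS1*, 95.9% identical over 4614 nt, and this gene had 0 counts in all 4 libraries. The other matches are not given here, and a count of 0 does not show how shared reads were assigned.

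*LINC00094* was at 125 and 127 CPM in the vector control and at 79.0 and 90.8 CPM in OE, with a standard error of 0.103 around a log2 fold change of -0.57 (adjusted p = 0.110). Its main transcript, ENST00000603928.1, had 2661 and 2728 counts in the control libraries and 1952 and 2376 in OE. Both counts of OE were below both counts of the control. Since its exons overlap those of *BRD3* on the opposite strand, reads of the pair cannot be told apart without strand.

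*LINC00883* (*DUBR*), an lncRNA described in muscle differentiation, was at 43.8 and 35.5 CPM in the vector control and at 26.7 and 24.0 CPM in OE (log2 fold change -0.65, standard error 0.153). *LINC01060*, a 6-exon transcript on chromosome 4, was at 12.4 and 11.1 CPM against 7.97 and 7.74 CPM (-0.58, standard error 0.138). *LINC00205* was at 36.8 and 40.8 CPM against 29.5 and 32.0 CPM (-0.34, standard error 0.112). In all 3 the groups were apart, and the adjusted p was between 0.149 and 0.226. *LINC00957*, which overlaps *RASA4CP* on the opposite strand and is 98.3% identical to *RASA4* over 412 nt, was at 3.52 and 3.96 CPM in the vector control and 2.03 and 2.42 CPM in OE. *LINC00525* was at 1.98 and 2.00 CPM against 1.12 and 1.24 CPM. Both had a log2 fold change of -0.75, with adjusted p-values of 0.182 and 0.207 in edgeR's quasi-likelihood test. With a library left out, it ran from -0.88 to -0.63 in *LINC00957* and from -0.83 to -0.67 in *LINC00525*. That of *LINC00205* ran from -0.41 to -0.27.

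Among the members higher in OE, *LINC00682*, *LINC00632* and *LINC00452* had the largest log2 fold changes, all from levels near 1 CPM in the vector control. *LINC00682* had 17 and 33 counts in the controls and 66 and 68 in OE (log2 fold change 1.22, standard error 0.395, adjusted p = 0.218). The ratio of the 2 control libraries was larger than that of the lower OE library to the higher control library. *LINC00682* kept an unadjusted p under 0.05 in 1 of the 4 fits that left out a library.

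*LINC00632* had 22 and 24 counts in the controls and 56 and 67 in OE. Its locus on chromosome X gives rise to the circular RNA CDR1-AS, known for its many sites for miR-7, but a circular form was not measured as such here. It passed the limit of 1 CPM only through its level in OE. OE was 2.31-fold higher, or 1.21 on the log2 scale (standard error 0.229, adjusted p = 0.115), and it lay between 1.15 and 1.26 with each library left out. *LINC01023*, a single-exon transcript on chromosome 5, had 40 and 43 counts against 88 and 102 (log2 fold change 0.99, standard error 0.187, adjusted p = 0.115). In both genes the replicates of a group differed far less than the groups.

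*LINC00452* and *LINC00565* are adjacent on chromosome 13, on opposite strands, and overlap by 461 nt. *LINC00565* is also named *SWINGN*, an RNA described as a partner of the SWI/SNF remodelling complex at *GAS6*. *LINC00452* had 25 and 23 counts in the controls and 55 and 67 in OE, and *LINC00565* had 139 and 171 counts against 289 and 363. The log2 fold changes were 1.13 (standard error 0.230) and 0.86 (standard error 0.169), with adjusted p-values of 0.124 and 0.119. Without strand, reads of the overlap could be assigned to either gene, and how many were shared was not tested.

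*LINC00174* was the highest expressed of the 8, with 16.7 and 21.5 CPM in the vector control and 32.3 and 37.9 CPM in OE (log2 fold change 0.88, standard error 0.185, adjusted p = 0.128). *LINC00176*, annotated as the protein-coding gene *C20orf204*, had 86 and 96 counts against 237 and 188 (1.03, standard error 0.252, adjusted p = 0.153). *LINC00702* was at 5.28 and 3.70 CPM against 7.77 and 7.19 CPM (0.73, standard error 0.237, adjusted p = 0.216). In all 3 genes the groups were apart, but the 2 OE libraries of *LINC00176* and the 2 control libraries of *LINC00702* differed from each other more than the replicates of the other group did.

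**Figure D3:**
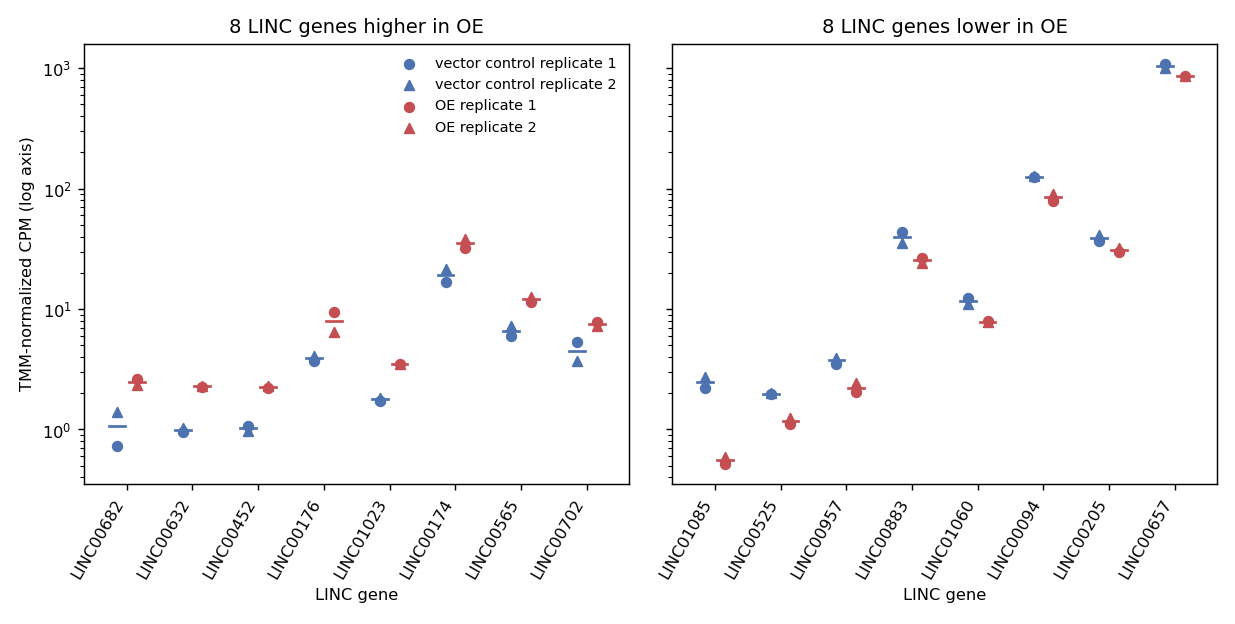
TMM-normalized CPM (log axis) of the 8 LINC genes with the largest log2 fold change above 0 (left) and below 0 (right) among those with an unadjusted p under 0.05 and groups that do not overlap. Points are the 4 libraries and short lines the group means; *LINC01085* has the widest gap, from 2.46 CPM in the vector control to 0.553 CPM in OE.

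The other 7 members at an unadjusted p under 0.05 were all higher in OE. They fall outside the rule for named genes and were chosen after their values were seen, except for *LINC00998*. *LINC00638* (log2 fold change 0.71), *LINC00665* (0.52), *LINC00537* (0.49), *LINC00680* (0.48), *LINC01003* (0.41) and *LINC00936* (0.40) had adjusted p-values between 0.136 and 0.219. *LINC00665* was at 21.9 and 24.3 CPM in the vector control and at 31.9 and 34.2 CPM in OE. *LINC00998* was at 60.6 and 78.1 CPM against 91.8 and 97.6 CPM (0.45, standard error 0.158, adjusted p = 0.240), and without vector control replicate 1 its log2 fold change was 0.27. *LINC00680*, a pseudogene 95.5% identical to *GUSBP1* over 1089 nt, was at 0.31 without OE replicate 1. The log2 fold change of *LINC00936* ran from 0.34 to 0.45 when a library was left out.

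Of 14 listed loci that encode small proteins, 12 were in the deposited counts by symbol and 6 were among the members. *LINC00998* was higher in OE at an unadjusted p under 0.05, and the other 5 had an unadjusted p of 0.05 or more. All 6 had a log2 fold change above 0, with a median of 0.31 against 0.20 over all members and 0.01 over all tested genes. The list does not hold every protein-coding locus: of the 11 so annotated, 3 had a log2 fold change below 0, *LINC00890* (-2.85), *LINC00094* (-0.57) and *LINC00634* (-0.10). *LINC00116*, which encodes the mitochondrial peptide mitoregulin, was at 21.8 and 23.4 CPM in the vector control and at 30.8 and 24.1 CPM in OE (log2 fold change 0.28, adjusted p = 0.418). *LINC00493* was at 21.1 and 15.5 CPM against 25.3 and 20.9 CPM, so that the groups overlapped (0.34). *LINC00984* (0.14) and *LINC00467* (0.23) had smaller values. *LINC00086* had 23 and 29 counts in the controls and 26 and 76 in OE (0.73), and its log2 fold change was -0.10 without OE replicate 2. By annotated class, the median log2 fold change was 0.15 over the 77 lncRNA genes, 0.28 over the 11 protein-coding and 0.48 over the 9 pseudogenes, with 17 (22.1%), 3 (27.3%) and 3 (33.3%) members at an unadjusted p under 0.05, beside 20.8% of all tested genes.

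Of the other lists, 1 of 4 microRNA hosts, 2 of 5 cytoplasmic or stimulus-linked RNAs and 3 of 6 neural or neuroblastoma RNAs were members. By these symbols, the deposited counts held 4 of the hosts, 4 of the cytoplasmic or stimulus-linked RNAs and 3 of the neural RNAs. The rest could not be looked up. *LINC00599*, the host of the neuronal microRNA miR-124-1, had 90 and 46 counts in the controls and 140 and 168 in OE. The groups did not overlap, and the control libraries differed 1.97-fold from each other (log2 fold change 0.97, standard error 0.383, adjusted p = 0.276). Without vector control replicate 1 its log2 fold change was 1.53, and without replicate 2 it was 0.55. *LINC00152* (*CYTOR*), a cytoplasmic lncRNA, had 437 and 255 counts in the controls and 340 and 252 in OE, so that the groups overlapped. Its log2 fold change of -0.41 (adjusted p = 0.604) became 0.03 without vector control replicate 1. A transcript of *MIR4435-2HG* is 98.8% identical to that of *LINC00152* over 759 nt, so reads may be shared between the loci. Of the neural list, *LINC00682* and *LINC00632* were higher at an unadjusted p under 0.05, as given above. *LINC00839* was at 42.2 and 44.3 CPM in the vector control and at 35.6 and 39.0 CPM in OE (-0.21, adjusted p = 0.335).

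The hosts of the microRNAs shown above did not pass the test. *LINC01057* had 22 and 30 counts in the controls and 42 and 49 in OE (log2 fold change 0.60, adjusted p = 0.335). *LINC00969* had 416 and 461 counts against 426 and 583 (-0.01, adjusted p = 0.967), with values from -0.14 to 0.11 when a library was left out. Its transcript is 99.2% identical to one of *SDHAP1* over 1924 nt. *LINC00472* had 12 and 43 counts against 42 and 41 (0.39, adjusted p = 0.783), and its log2 fold change was -0.25 without vector control replicate 1 and 1.57 without replicate 2. *RP5-998N21.4* lies on chromosome 1 at 149372292 to 149379646 (GRCh37). The only member between 120000000 and 150000000 on this chromosome was *LINC00622*, with 243 and 287 counts in the controls and 167 and 273 in OE (-0.49, adjusted p = 0.341).

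Of the most abundant members not yet described, *LINC00909* was at 44.9 and 54.2 CPM in the vector control and at 58.3 and 51.3 CPM in OE (log2 fold change 0.15, adjusted p = 0.629). *LINC00667* had 1030 and 833 counts against 1105 and 1503 (0.27, adjusted p = 0.443). In both the groups overlapped. *LINC00221* was at 48.2 and 47.0 CPM against 38.1 and 41.6 CPM, with groups apart (-0.26, adjusted p = 0.262).

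The remaining 77 members had an unadjusted p of 0.05 or more, which does not show that their levels were the same. Their log2 fold changes ran from -2.85 to 0.97, with 48 above 0 and 29 below, and the lowest after *LINC00890* was -1.03. Of these members, 26 lay within 0.2 of 0 on the log2 scale. The median standard error was 0.28, against 0.17 among the 23 members with an unadjusted p under 0.05.

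Of the 33 members at 10 CPM or more, 12 (36.4%) were at an unadjusted p under 0.05, where 25.7% of all tested genes of such levels were, with a median log2 fold change of 0.07, and 1 differed more than 2-fold between replicates. Of the 67 members from 1 to 10 CPM, 11 (16.4%) were at an unadjusted p under 0.05, beside 17.7% of all tested genes from 1 to 10 CPM, with a median of 0.27, and 13 differed more than 2-fold between replicates. The median ratio of replicates was 1.20 in the vector control and 1.15 in OE over all members. In all, 14 members differed more than 2-fold between replicates of at least 1 group, 9 in the vector control and 7 in OE.

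**Figure D4:**
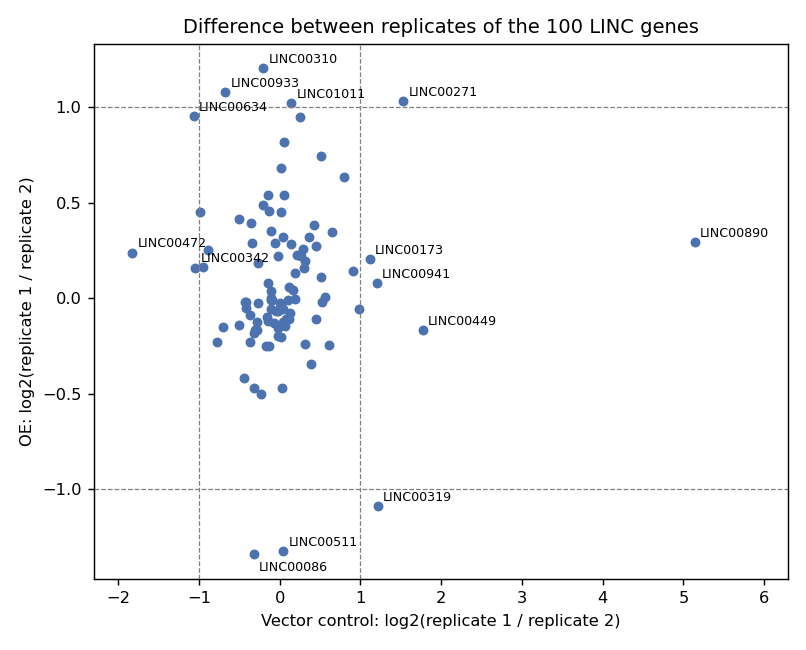
Log2 ratio of replicate 1 to replicate 2 in the vector control (x axis) and in OE (y axis) for the 100 LINC genes, with dashed lines at a 2-fold difference and names for the 14 members beyond them. *LINC00890* lies farthest out, with a 35.2-fold difference between the control libraries.

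A difference of more than 4-fold between replicates was seen in *LINC00890* alone, which is annotated as the protein-coding *SERTM2*. It had 802 counts in replicate 1 of the vector control, 23 in replicate 2, and 68 and 64 in OE. All 802 counts were on the transcript ENST00000569275.1 of 4612 nt, which had 0 counts in the other 3 libraries, where all counts were on ENST00000563467.1 of 407 nt. A count of 0 allows up to 3 counts. On the log2 scale the difference was -2.85 (standard error 1.67, adjusted p = 0.418), and it turned to 1.32 without vector control replicate 1.

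Such switches of the counted transcript between libraries were not rare. Of the 60 members with counts on several transcripts, 20 had a different leading transcript in different libraries. *LINC00680* had 394, 387 and 599 counts on ENST00000418765.1 in both control libraries and OE replicate 2, and 0 in OE replicate 1, which had 649 counts on ENST00000422882.1. *LINC00941*, named here after its values were seen, had 353 counts on ENST00000547804.1 in vector control replicate 1 but 0 elsewhere. Its log2 fold change of -1.03 shrank to -0.32 without vector control replicate 1. *LINC00667* had 474 and 703 counts on ENST00000582008.1 in OE and 0 in the vector control, while ENST00000582363.1 had 252 and 155 counts in the controls and 0 in OE. By the transcript with the highest mean count, 23 of 99 members differed more than 2-fold between replicates, against 14 of 100 by the sum over transcripts. The part of the assignment of reads to transcripts in the differences was not tested.

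Many lncRNA genes share a regulatory region with a protein-coding gene, so each member was set beside the protein-coding gene with the nearest start site among those tested. This gave 98 pairs with 93 distinct neighbours and a median distance of 50518.5 nt between start sites. The log2 fold changes had the same sign in 49 of the 98 pairs, with a Spearman rho of -0.08 across pairs, which share all 4 libraries. In 23 of the 98 pairs the neighbour was at an unadjusted p under 0.05, with a neighbour shared between pairs, such as *POFUT2*, counted in each. Of all protein-coding genes at 1 CPM or more, 24.8% were. That set is unlike the neighbours, which were taken without a limit of 1 CPM. In 7 pairs both genes were at an unadjusted p under 0.05. The members of these 7 pairs and their neighbours had the same sign in 2 and opposite signs in 5.

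The 2 pairs with the same sign were *LINC00205* with *POFUT2* and *LINC00702* with *KLF6*, a zinc-finger transcription factor. These and the 5 pairs with opposite signs were picked by the p of both genes. *POFUT2*, which adds fucose to secreted proteins, had 1476 and 415 counts in the controls and 207 and 273 in OE (log2 fold change -2.20), so its control libraries differed more than 2-fold. *KLF6* had 739 and 976 counts against 2089 and 1820 (1.00), at 458719 nt from the start of *LINC00702*. The 5 pairs with opposite signs joined *LINC00998* with *GPR85* (-0.74), *LINC01003* with *XRCC2* (-0.32), *LINC00174* with *TPST1* (-0.33), *LINC00176* with *SOX18* (-1.43) and *LINC00632* with *LDOC1* (-0.47), where the value is that of the neighbour. The neighbour of *LINC00890*, a pair picked after its values were seen, was *DCX*, which encodes the microtubule protein doublecortin of young neurons, with 1456 and 1387 counts in the controls and 3820 and 4828 in OE (1.39).

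Divergent pairs, with start sites within 1 kb and transcription away from each other, were found for 5 members. They were *LINC00936* with *ATP2B1*, *LINC00894* with *CXorf40B*, *LINC00449* with *TM9SF2*, *LINC01057* with *SLC44A3* and *LINC00271* with *AHI1*. All 5 neighbours had an unadjusted p of 0.05 or more. *ATP2B1*, which encodes a calcium pump of the plasma membrane, starts 121 nt from *LINC00936* and had 5178 and 5120 counts in the controls and 6478 and 3100 in OE (-0.27). *LINC00936* had 429 and 467 counts against 642 and 720 (0.40). Among the members themselves, *LINC00883* and *LINC00882* start 60 nt apart. The log2 fold change of *LINC00882*, with 24 and 48 counts in the controls and 32 and 27 in OE, was -0.48 (adjusted p = 0.615), beside -0.65 for *LINC00883*.

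**Figure D5:**
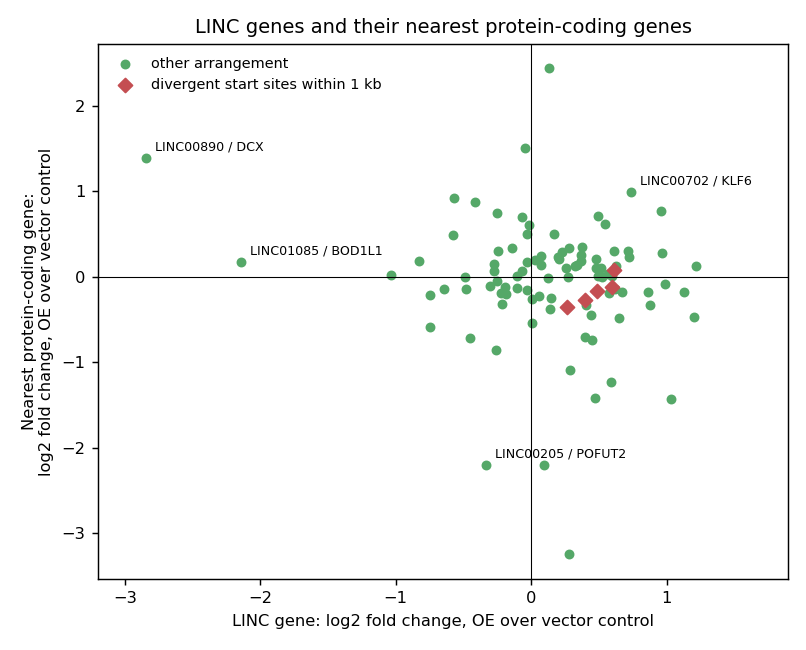
Log2 fold change, OE over vector control, of 98 LINC genes (x axis) and of the protein-coding gene with the nearest start site (y axis). The 5 divergent pairs are red diamonds and the other pairs green circles; the points lie on both sides of 0 on both axes, and 49 of 98 pairs have the same sign.

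The limit of 1 CPM cut through a range without a gap. On library totals, just inside were *LINC00310* (1.06 CPM), *LINC00319* (1.05 CPM) and *LINC01018* (1.03 CPM). Just outside were *LINC00610* (0.993 CPM), *LINC01021* (0.992 CPM) and *LINC00629* (0.991 CPM). The p53-responsive *LINC01021* had 5 and 14 counts in the controls and 33 and 52 in OE, *LINC00610* had 0, 12, 75 and 12, and *LINC00629* had 22 and 18 against 26 and 35.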

How the data were processed

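The data are 4 RNA-seq libraries of SK-N-SH, 2 vector control and 2 *RP5-998N21.4* OE, grouped by the treatment label. Before deposit, the authors used FastQC for quality control and Trimmomatic for trimming, and aligned with Bowtie2 against hg19. The submitters' processing notes also list Bowtie2 2.0.4, Picard 2.21.6, StringTie 2.1.6 and DESeq2. The deposited values are raw counts of each transcript, in whole numbers. The counting settings, annotation release and strand are not given in the sources used here. If the counts derive from an estimate that assigns shared reads to isoforms, single transcripts are less certain than gene sums.

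Counts of 196520 transcripts were summed per gene. Genes kept by filterByExpr were normalized by TMM (factors 0.976 to 1.02) and tested with edgeR 4.0.16 (R 4.3.3), glmQLFit and glmQLFTest, without covariates, with Benjamini-Hochberg adjustment. CPM in the text is TMM-normalized, except the means over the 4 libraries, the levels per kb and 1 set of sums named as such, which use library totals. Alternatives were RLE normalization, DESeq2 1.42.0 (named in the paper's methods), limma-voom 3.58.1, other filters on low counts, a replicate block, each library left out, the transcript with the highest mean count, and a mean of 2 CPM. The fit across genes was checked on simulated data in which 200 genes had known differences. The spread between simulated libraries (dispersion) was set lower than the common dispersion of 0.122 estimated here. The check therefore does not show how the fit behaves at the spread of these data. No molecular identifiers were used, so limits cover counting error only.

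The members and gene lists were chosen with earlier results of these data known. Named genes were the 8 highest means, members with an adjusted p under 0.05 (0 found), the 8 largest differences in each direction among those with an unadjusted p under 0.05 and groups apart, members of the 4 lists, of chromosome 1 from 120000000 to 150000000, beside divergent neighbours at an unadjusted p under 0.05 (0 found), hosts of microRNAs, those at the 1 CPM limit and those with a 4-fold difference between replicates. Positions came from GENCODE v44 lifted to GRCh37, which calls the compared class lncRNA instead of lincRNA. Promoters and microRNAs came from RefSeq (GRCh38.p14). Near-identical transcripts were found with BLAST+ 2.17.0. Some results on marker genes are not reported here.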

Additional observations from a re-analysis of the deposited data

How the results depend on the processing

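With DESeq2, 15 members passed an adjusted p under 0.05 with an absolute log2 fold change above 0.5, against 0 with edgeR's quasi-likelihood test, and 14 of 40 named genes newly passed (17 on the adjusted p alone); the cause was not tested. RLE normalization, limma-voom and both other filters on low counts each gave 23 members at an unadjusted p under 0.05, where 20.7%, 21.43%, 14.0% (every gene with at least 1 count) and 20.8% (a mean of at least 10 counts) of all genes were; limma-voom and the filter of at least 1 count gave 16 higher and 7 lower in place of 15 and 8. With each library left out, this count was 13 to 19, the median log2 fold change 0.11 to 0.24, and Spearman's rho with the neighbours -0.17 to -0.012 (-0.08 with all). A mean of 2 CPM or more kept 65 members, with a median of 0.15 and 5 members more than 2-fold apart between replicates. With the transcript of the highest mean count, 23 of 99 members were more than 2-fold apart, against 14, and *LINC00667* turned to -0.24. With a library left out, the sign turned in 30 members (0 of them at an unadjusted p under 0.05), among the named genes in *LINC00969* (-0.14 to 0.11, and 0.05 without vector control replicate 2), *LINC00152* (-0.76 to 0.030), *LINC00890* (-3.81 to 1.32), *LINC00086* (-0.10 to 1.24), *LINC00472* (-0.25 to 1.57) and *LINC00310* (-0.97 to 0.23).

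The replicate numbers are shared by the groups in the labels, but no label ties them to a batch, and deviations of same-numbered libraries were not correlated (r = -0.02 over 20528 genes). With a replicate block, 17 members were at an unadjusted p under 0.05, beside 14.9% of all genes, 0 passed the adjusted threshold, the median stayed at 0.20, and *RP5-998N21.4* was at an adjusted p of 0.193 in place of 0.0109. With 2 libraries a group, and counts under 70 per library for several of the named genes, small differences could not be told from the spread.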
